A study of Mus musculus with 6 samples.

Results

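Coinhibitory receptors are surface proteins that restrain T cells, and 7 of their genes are described here across 3 sorted populations of mouse CD4+ T cells: Pdcd1, Ctla4, Tigit, Havcr2, Lag3, Cd160 and Btla. The members were chosen by name, as every probe set whose gene symbol is a listed receptor, and each gene had 1 probe set, a group of array probes summarised to a single level. They make up 7 of 19938 genes and 7 of 23410 named probe sets. RNA came from CD4+ T cells carrying the activation marker CD44, sorted from draining lymph nodes of male Bcl6_RFP reporter mice aged 8 to 10 weeks. In these mice a red fluorescent protein reports Bcl6, the transcriptional repressor that follicular helper T cells require. All groups shared the reporter genotype and the immunisation, a protein antigen (KLH) in complete Freund's adjuvant (CFA). The groups differed in surface Cxcr5, the chemokine receptor that leads lymphocytes into B cell follicles, and in the reporter. Cxcr5+Bcl6+ cells carried both, Cxcr5+Bcl6- cells the receptor alone, and Cxcr5-Bcl6- cells neither. Each group had 2 arrays, which the series calls biological replicates. The sources used here do not say whether several mice were pooled per array or whether the cells were restimulated after sorting.

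A T cell that meets its antigen displays coinhibitory receptors, whose cytoplasmic tails recruit phosphatases or whose outer domains compete for the ligands of stimulatory receptors. PD-1, the product of Pdcd1, is a classical surface marker of follicular helper T cells, where it tunes their contact with B cells. Tim-3, the product of Havcr2, is known from T helper 1 cells and from exhausted T cells. CTLA-4 is carried at high levels by regulatory T cells, which also display TIGIT.

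The labels were first set against marker genes. Mean Bcl6 was 10.31 in the Cxcr5-Bcl6- arrays, 10.56 in the Cxcr5+Bcl6- arrays and 11.5 in the Cxcr5+Bcl6+ arrays on the log2 scale, on which a step of 1 is a 2-fold change, so the groups named Bcl6- by the reporter had Bcl6 transcript. The summed level of 10 T cell core genes was 15.8 to 15.9 in all 6 arrays. Single genes differed all the same: 4 were higher and 2 lower in the Cxcr5+Bcl6+ than the Cxcr5-Bcl6- cells, at an adjusted p under 0.05 in limma. The largest difference was that of Cd4 (0.79). Leaving out each array in turn gave 2 to 4 higher and 0 to 2 lower. Detection calls were not used, so 1223 probe sets of olfactory, vomeronasal and trace-amine receptor genes stood in for unexpressed genes. Their 95th percentile was 7.30 to 7.73 across the arrays. The median of their differences was 0.22 for Cxcr5+Bcl6+ minus Cxcr5-Bcl6- arrays and 0.30 for Cxcr5+Bcl6+ minus Cxcr5+Bcl6- arrays. A difference in level in sorted cells cannot tell fewer cells of a type from less RNA per cell.

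The receptor genes differed in opposite directions in the Cxcr5+Bcl6+ cells. Against Cxcr5-Bcl6- cells, Pdcd1 and Tigit were higher and Ctla4, Havcr2 and Cd160 were lower, so that 5 of 7 passed the test (limma, adjusted p under 0.05 over all named probe sets), against 35.3% of all probe sets (17.6% higher and 17.7% lower). The groups did not overlap for 5 of the 7 receptor genes, against 62.6% of all probe sets. Against Cxcr5+Bcl6- cells Pdcd1 and Tigit passed as higher and Ctla4, Havcr2 and Cd160 as lower, with a background of 26.4% (13.4% higher and 13.0% lower). That background split moved with scaling, since 50.8% of the calls were higher as deposited and 35.0% after each array was centred on its median. No receptor gene overlapped between these groups, while 65.8% of all probe sets did not overlap. Between Cxcr5+Bcl6- and Cxcr5-Bcl6- cells only Tigit and Havcr2 passed, both higher in Cxcr5+Bcl6- cells, against a background of 11.1% (5.22% higher and 5.93% lower). Without Cxcr5+Bcl6- replicate 1 the count there was 1. There too all 7 were without overlap, against 50.1%. The median differences over the 7 receptor genes were -0.02, -0.10 and 0.22 in that order, beside 0.04, 0.06 and -0.03 over all genes, and the -0.02 of the receptor genes became 0.02 after renewed quantile normalisation. The 3 comparisons share arrays and are not independent of each other.

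**Figure D1:**
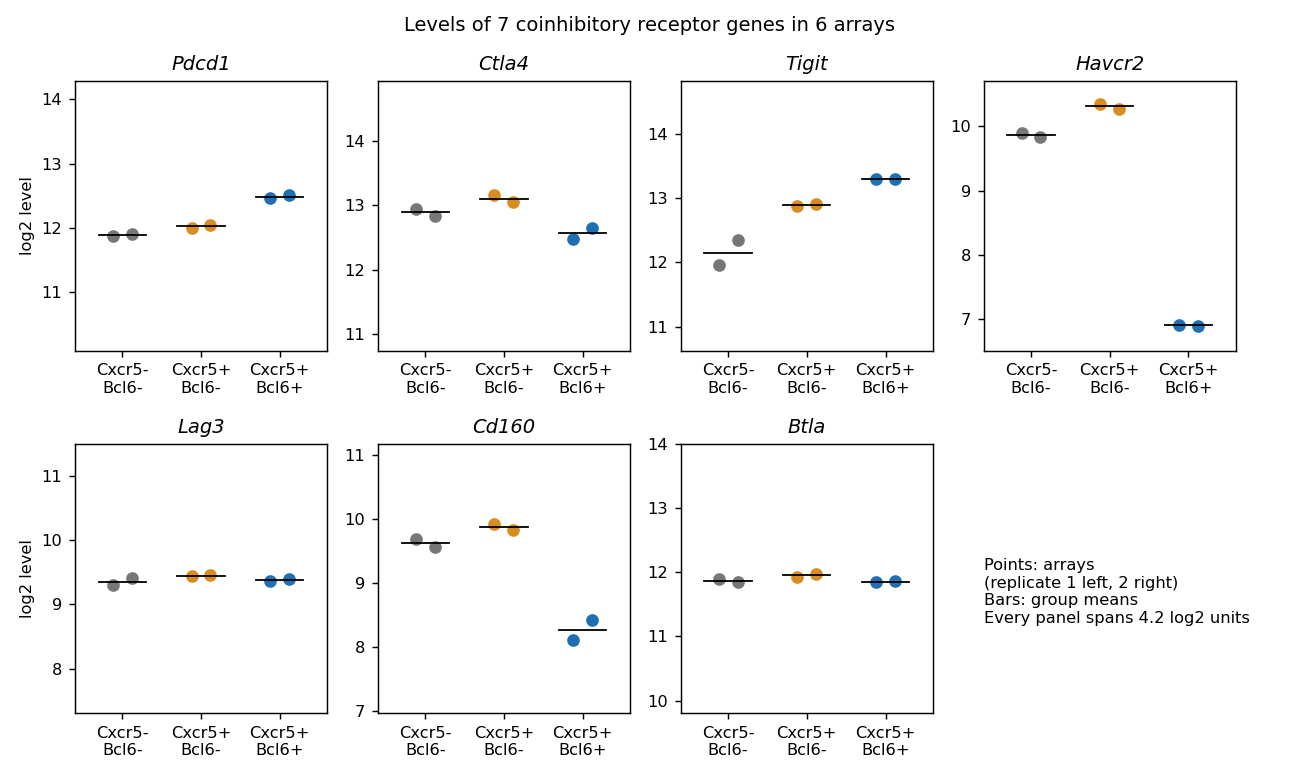
Log2 level of each of the 7 receptor genes in the 6 arrays, with points for arrays and bars for the means of the 3 groups (n = 2 each). Every panel has the same height in log2 units but its own range. Pdcd1 and Tigit were highest in Cxcr5+Bcl6+ arrays, Havcr2 and Cd160 lowest there, and Lag3 and Btla lay within a narrow band.

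Pdcd1 and Tigit, both highest in the Cxcr5+Bcl6+ cells, encode receptors whose tails carry inhibitory signalling motifs. Pdcd1 (probe set 10356866), which encodes PD-1, stood at 12.46 and 12.51 in the Cxcr5+Bcl6+ arrays, at 11.997 and 12.05 in the Cxcr5+Bcl6- arrays and at 11.87 and 11.91 in the Cxcr5-Bcl6- arrays. Both Cxcr5+Bcl6+ arrays lay above the other 4, and the Cxcr5+Bcl6- arrays lay just above the Cxcr5-Bcl6- arrays. The level was higher in the Cxcr5+Bcl6+ than the Cxcr5-Bcl6- cells by 0.60 (SE 0.0863, 1.52-fold, adjusted p = 0.000199) and higher than in the Cxcr5+Bcl6- group by 0.46 (1.38-fold, adjusted p = 0.00217). The 0.14 between the Bcl6- groups did not pass (interval -0.05 to 0.33, adjusted p = 0.437).

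Tigit (probe set 10439527), which encodes a receptor that binds the poliovirus receptor on antigen-presenting cells, stood at 13.30 and 13.29 in the Cxcr5+Bcl6+ arrays. It was at 12.88 and 12.90 in the Cxcr5+Bcl6- arrays and at 11.96 and 12.34 in the Cxcr5-Bcl6- arrays. The groups formed 3 separate steps, and the Cxcr5-Bcl6- arrays were the farthest apart within a group. The step from Cxcr5-Bcl6- to Cxcr5+Bcl6- was 0.74 (SE 0.117, 1.67-fold, adjusted p = 0.00176), and the full distance to Cxcr5+Bcl6+ was 1.15 (2.21-fold, adjusted p = 1.37e-05). The step of 0.41 from Cxcr5+Bcl6- to Cxcr5+Bcl6+ passed with all arrays (adjusted p = 0.0245). The call was lost without Cxcr5+Bcl6+ replicate 1 (adjusted p = 0.110) or 2 (0.0960), and without Cxcr5+Bcl6- replicate 1 (0.0955) or 2 (0.0720), its size staying at 0.39 to 0.42. In the same comparison the median difference of the dim stand-in genes was 0.30, and whether this bears on the 0.41 of Tigit or the 0.46 of Pdcd1 was not tested.

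Havcr2 and Cd160 had their lowest levels in the Cxcr5+Bcl6+ cells and their highest in the Cxcr5+Bcl6- cells. Havcr2 (probe set 10375443), which encodes Tim-3, stood at 6.90 in both Cxcr5+Bcl6+ arrays, at 10.35 and 10.28 in the Cxcr5+Bcl6- arrays and at 9.90 and 9.84 in the Cxcr5-Bcl6- arrays. Both Cxcr5+Bcl6+ arrays were far below the other 4, and under the 95th percentile of the unexpressed stand-in genes there (7.72 and 7.73). A gene under that percentile in both arrays of a group has only an upper limit there, so its fold is given as a minimum, with the percentile of each array in place of the dim level. Havcr2 was at least 4.42-fold lower in the Cxcr5+Bcl6+ than the Cxcr5-Bcl6- cells (measured log2 difference -2.97, adjusted p = 1.47e-09). Set against the Cxcr5+Bcl6- group it was at least 6.01-fold lower (measured log2 difference -3.41, adjusted p = 6.18e-10). In Cxcr5+Bcl6- cells Havcr2 was 1.36-fold higher than in Cxcr5-Bcl6- cells (log2 difference 0.44, adjusted p = 0.00652), a call that was lost without Cxcr5+Bcl6- replicate 1 (0.41, adjusted p = 0.0956).

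Cd160 (probe set 10500406) encodes a small receptor that is anchored in the membrane by a lipid and binds herpesvirus entry mediator. It stood at 8.12 and 8.42 in the Cxcr5+Bcl6+ arrays, at 9.92 and 9.82 in the Cxcr5+Bcl6- arrays and at 9.69 and 9.56 in the Cxcr5-Bcl6- arrays. The Cxcr5+Bcl6+ arrays were again below the other 4 without overlap, but above the 95th percentile of the stand-in genes. The level was 2.57-fold lower than in Cxcr5-Bcl6- cells (log2 difference -1.36, SE 0.111, adjusted p = 2.45e-06) and 3.03-fold lower than in Cxcr5+Bcl6- cells (log2 difference -1.60, adjusted p = 1.28e-06). The 0.24 between the Bcl6- groups did not pass (adjusted p = 0.233).

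The start regions of Pdcd1 and Tigit, whose means were highest in Cxcr5+Bcl6+ cells, and of Havcr2 and Cd160, with the largest differences in the other direction, are shown so that their letters can be set side by side. Each is the 250 bases before a RefSeq start site (build GRCm38.p6), read 5′ to 3′ on the gene's strand. Pdcd1 lies at chr1:94052554-94052803, strand -, Tigit at chr16:43664185-43664434, strand -, Havcr2 at chr11:46454681-46454930, strand +, and Cd160 at chr3:96829352-96829601, strand - for the first of its start sites. Capitals mark matches to the motifs named after the sequences.
Pdcd1: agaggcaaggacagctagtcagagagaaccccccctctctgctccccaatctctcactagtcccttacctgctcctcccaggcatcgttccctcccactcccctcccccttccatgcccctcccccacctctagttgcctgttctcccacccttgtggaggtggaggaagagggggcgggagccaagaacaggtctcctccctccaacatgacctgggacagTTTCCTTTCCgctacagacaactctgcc
Tigit: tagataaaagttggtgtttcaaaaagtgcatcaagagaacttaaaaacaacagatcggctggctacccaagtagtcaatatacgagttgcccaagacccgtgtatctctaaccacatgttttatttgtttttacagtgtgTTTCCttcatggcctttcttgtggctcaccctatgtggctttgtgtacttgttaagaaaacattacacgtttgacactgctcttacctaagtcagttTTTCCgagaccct
Havcr2: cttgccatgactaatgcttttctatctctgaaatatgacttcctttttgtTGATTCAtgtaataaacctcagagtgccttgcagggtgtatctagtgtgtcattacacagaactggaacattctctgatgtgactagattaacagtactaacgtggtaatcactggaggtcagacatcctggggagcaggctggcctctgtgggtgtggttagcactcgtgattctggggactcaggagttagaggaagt
Cd160: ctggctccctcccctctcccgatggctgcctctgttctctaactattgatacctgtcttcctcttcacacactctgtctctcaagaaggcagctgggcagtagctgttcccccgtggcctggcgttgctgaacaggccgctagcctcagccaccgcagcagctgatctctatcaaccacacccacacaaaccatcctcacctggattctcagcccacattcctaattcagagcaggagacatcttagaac

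A total of 6 short motifs were searched on both strands in the windows of the 6 receptor genes that matched by symbol, Cd160 having 2 windows. The core GGAAA, bound by NFAT factors that T cell receptor signals activate, was in 55.6% of all 32851 RefSeq windows of this length. It occurred at 2 places in the window of Pdcd1, which adjoin each other, at 2 places in that of Tigit, at 1 place in that of Ctla4 and at 1 place in the second window of Cd160. TGANTCA, a pattern looser than the AP-1 site, which has C or G at N, was in 6.75% of windows. Among the receptor genes it was in the window of Havcr2 alone. That match read TGATTCA, so it met only the looser pattern. TTCNNNGAA, a palindrome shared by STAT and Bcl6 sites, was in 7.02% of windows, and GGTGTGA, a T-box element, in 3.33%. Both occurred in the second window of Cd160 and in no other. AAGGTCA (an Nr4a element, in 4.08% of windows) and AGNGAAAG (a Prdm1 core, in 7.3%) matched none of these windows, and Btla and the first window of Cd160 held no match at all. No match overlapped one to another motif. A match describes only the letters of a short window.

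Ctla4 (probe set 10346790) encodes the receptor that competes with CD28 for its ligands CD80 and CD86. It stood at 12.48 and 12.65 in the Cxcr5+Bcl6+ arrays, at 13.16 and 13.05 in the Cxcr5+Bcl6- arrays and at 12.95 and 12.84 in the Cxcr5-Bcl6- arrays. The 3 groups did not overlap, with Cxcr5+Bcl6- highest and Cxcr5+Bcl6+ lowest. The level was lower in the Cxcr5+Bcl6+ than the Cxcr5+Bcl6- cells by 1.45-fold (log2 difference -0.54, SE 0.0973, adjusted p = 0.00173). The 1.25-fold lower level relative to Cxcr5-Bcl6- cells (log2 difference -0.33) passed with all arrays (adjusted p = 0.0215). That call was lost without Cxcr5+Bcl6+ replicate 1 (-0.24, adjusted p = 0.131) and without Cxcr5-Bcl6- replicate 1 (-0.27, adjusted p = 0.110). The 0.22 between the Bcl6- groups did not pass (adjusted p = 0.224).

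Lag3 and Btla did not pass in any comparison. Lag3 (probe set 10547906), which encodes a CD4-like receptor for MHC class II, stood at 9.36 and 9.39 in the Cxcr5+Bcl6+ arrays, at 9.44 and 9.46 in the Cxcr5+Bcl6- arrays and at 9.31 and 9.40 in the Cxcr5-Bcl6- arrays. The Cxcr5-Bcl6- arrays enclosed the Cxcr5+Bcl6+ arrays. The difference between Cxcr5+Bcl6+ and Cxcr5-Bcl6- cells was 0.02 with an interval of -0.17 to 0.21 (adjusted p = 0.893), so that the interval leaves room for a level up to 1.16-fold higher or 1.13-fold lower. Against Cxcr5+Bcl6- cells it was -0.07 (interval -0.27 to 0.12, adjusted p = 0.581), and between the Bcl6- groups it was 0.09 (adjusted p = 0.656). Btla (probe set 10435982), which encodes the second inhibitory receptor for herpesvirus entry mediator, stood at 11.84 and 11.86 in the Cxcr5+Bcl6+ arrays, at 11.93 and 11.97 in the Cxcr5+Bcl6- arrays and at 11.89 and 11.85 in the Cxcr5-Bcl6- arrays. All 6 values lay close together. The difference between Cxcr5+Bcl6+ and Cxcr5-Bcl6- cells was -0.02 (interval -0.20 to 0.17, adjusted p = 0.910), and against Cxcr5+Bcl6- cells it was -0.10 (interval -0.28 to 0.09, adjusted p = 0.455). Between the Bcl6- groups it was 0.08 (adjusted p = 0.713). In the Lag3 and Btla comparisons of Cxcr5+Bcl6+ cells the sign itself depended on the scaling or on 1 array, except for Btla against Cxcr5+Bcl6- cells.

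**Figure D2:**
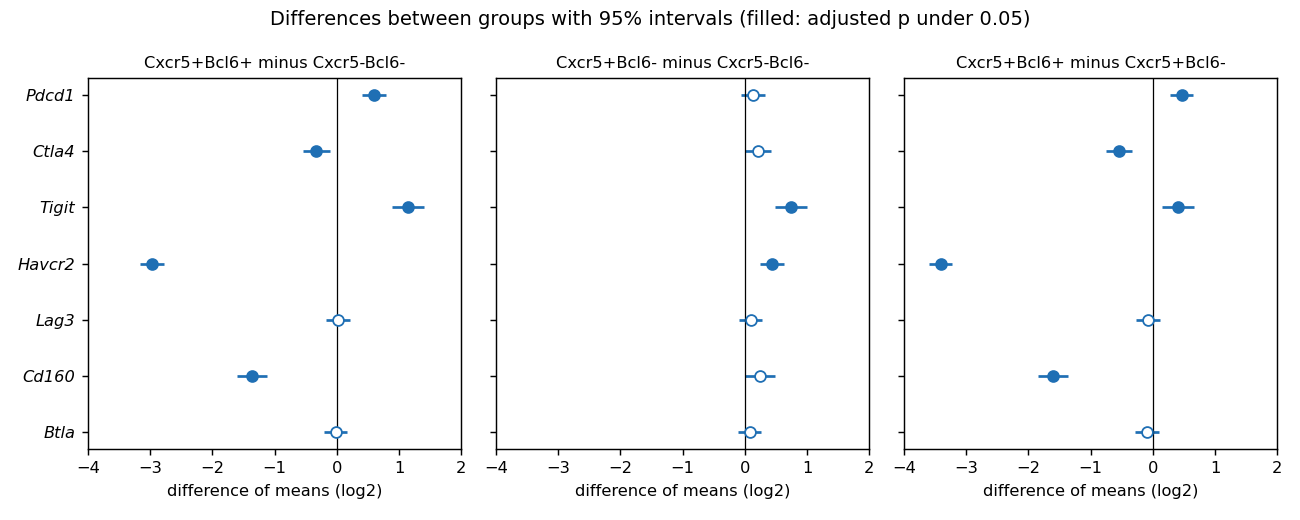
Differences between group means on the log2 scale for the 7 receptor genes, with 95% intervals from limma, filled where the adjusted p was under 0.05. Havcr2 (-2.97 and -3.41) and Cd160 (-1.36 and -1.60) lie far to the left in both comparisons of Cxcr5+Bcl6+ cells, where the points of Havcr2 are measured differences from a level under the stand-in percentile, and every point in the middle panel is above 0.

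Cxcr5+Bcl6- cells, which carried the follicle-homing receptor without the reporter, had the highest mean for 5 of the 7 receptor genes and the lowest for none. The share of all genes with such an order was not counted. Of the 5, only Havcr2 passed against both other groups. The means of Pdcd1 and Tigit were highest in Cxcr5+Bcl6+ cells. The lowest mean was in Cxcr5+Bcl6+ cells for 4 receptor genes and in Cxcr5-Bcl6- cells for 3. In the order of the 3 means, both neighbouring steps passed for Tigit and for Havcr2 with all arrays. The Tigit step between the Cxcr5+ groups was lost when any array of these groups was left out. The Havcr2 step between the Bcl6- groups was lost without Cxcr5+Bcl6- replicate 1. For Pdcd1, Ctla4 and Cd160 the step between the Bcl6- groups did not pass, and for Lag3 and Btla no step did.

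Several ligands of these receptors were also measured, since activated T cells carry some of them and other cells in a sort carry more. Of 15 ligand genes, 10 were lower and 2 higher in the Cxcr5+Bcl6+ than the Cxcr5-Bcl6- cells (median difference -0.59, beside 0.04 over all genes). Over all genes 16.4% were higher and 17.7% lower in that comparison. The shares were 11.8% and 13.2% for Cxcr5+Bcl6+ against Cxcr5+Bcl6- cells, and 5.5% and 5.49% for Cxcr5+Bcl6- against Cxcr5-Bcl6- cells. Every list count below stands beside these shares. Cd274 (probe set 10462390), which encodes the PD-1 ligand PD-L1, averaged 10.72 ± 0.102 in the Cxcr5+Bcl6+ group, 12.24 ± 0.0689 in the Cxcr5+Bcl6- group and 12.65 ± 0.0633 in the Cxcr5-Bcl6- group (SD, n = 2 each). It was lower in Cxcr5+Bcl6+ cells against both other groups (log2 difference -1.94 from Cxcr5-Bcl6-, adjusted p = 4.81e-08, and -1.53 from Cxcr5+Bcl6-, adjusted p = 5.63e-07). Cd274 was lowest in the group in which Pdcd1 was highest.

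Pdcd1lg2 (probe set 10462398), which encodes the other PD-1 ligand, averaged 7.43 ± 0.0837 in the Cxcr5+Bcl6+ group and 8.96 ± 0.0217 in the Cxcr5-Bcl6- group (measured log2 difference -1.54, adjusted p = 2.81e-07). The genes of the CTLA-4 ligands were lower as well, Cd80 (log2 difference -1.56, adjusted p = 1.29e-06) and Cd86 (measured difference -1.62, adjusted p = 4.15e-06). In both Cxcr5+Bcl6+ arrays Pdcd1lg2 and Cd86 lay under the 95th percentile of the stand-in genes, so that Pdcd1lg2 was at least 2.35-fold lower and Cd86 at least 2.83-fold lower. In Cxcr5+Bcl6- against Cxcr5-Bcl6- cells 8 of the 15 ligand genes were lower and none higher, against 5.49% and 5.5% of all genes. They included Cd80 (-1.20, adjusted p = 5.59e-05) and the MHC class II genes H2-Aa (-1.02), H2-Ab1 (-0.97) and H2-Eb1 (-0.97), whose products LAG-3 binds. Between the Cxcr5+ groups 5 were higher and 6 lower, against 11.8% and 13.2% of all genes. These counts fell to 3 and 3 without Cxcr5+Bcl6+ replicate 1 and to 1 and 3 without Cxcr5+Bcl6- replicate 1. The higher count was 2 without Cxcr5+Bcl6+ replicate 2 and 3 without Cxcr5+Bcl6- replicate 2. Lgals9, which encodes the Tim-3 ligand galectin-9, was among the lower genes (-0.90, adjusted p = 3.57e-05). The ligand counts include Ceacam1, which lay under the 95th percentile of the stand-in genes in all 6 arrays. It was counted as lower in both comparisons with Cxcr5-Bcl6- cells and as higher between the Cxcr5+ groups.

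Some coinhibitory receptors share ligands with stimulatory ones. The list of 12 stimulatory counterparts also held other costimulatory genes, such as Tnfrsf9, Tnfrsf18 and Slamf6, and the ligand gene Tnfsf14. Of the 12, 7 were lower and 3 higher in the Cxcr5+Bcl6+ than the Cxcr5-Bcl6- cells (median difference -0.54), against 17.7% and 16.4% of all genes. Cd226 (probe set 10457168), which encodes the stimulatory receptor that competes with TIGIT, averaged 7.71 ± 0.184 in the Cxcr5+Bcl6+ group, 9.36 ± 0.0451 in the Cxcr5+Bcl6- group and 9.93 ± 0.0696 in the Cxcr5-Bcl6- group. Its order was the reverse of that of Tigit, and 1 of its Cxcr5+Bcl6+ arrays lay under the stand-in percentile. It was lower in the Cxcr5+Bcl6+ than the Cxcr5-Bcl6- cells (log2 difference -2.22, adjusted p = 3.78e-08). Against Cxcr5+Bcl6- cells the difference was -1.64 (adjusted p = 6.44e-07), and Cd226 was lower in the Cxcr5+Bcl6- than the Cxcr5-Bcl6- cells (log2 difference -0.58, adjusted p = 0.00397).

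The other counterparts called with the smallest p against Cxcr5-Bcl6- cells were Tnfrsf9 (-1.57) and Tnfrsf18 (-1.11), which encode costimulatory receptors of the TNF receptor family, and Slamf6 (1.17), a receptor of the SLAM family. Against Cxcr5+Bcl6- cells 6 of the 12 were lower, among them Tnfrsf9 (-1.59) and Tnfsf14 (-1.30), which encodes LIGHT, a ligand that shares herpesvirus entry mediator with BTLA and CD160. The 1 higher gene was Cd4, which no longer passed without Cxcr5+Bcl6+ replicate 1 or either Cxcr5+Bcl6- array (adjusted p = 0.137, 0.209 and 0.195). Between the Bcl6- groups 4 were higher and 2 lower, and leaving out any of the 4 arrays compared left 2 higher. The lower count was 1 without Cxcr5-Bcl6- replicate 2 or either Cxcr5+Bcl6- array.

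Inhibitory receptors outside the 7 were mostly lower in Cxcr5+Bcl6+ cells. Of 13 measured, 9 were lower and 2 higher than in Cxcr5-Bcl6- cells (median difference -0.39), against 17.7% and 16.4% of all genes. The higher count was 1 without Cxcr5+Bcl6+ replicate 1. Entpd1 (probe set 10463070), which encodes the ectoenzyme CD39 that starts adenosine production, averaged 6.91 ± 0.0268 in the Cxcr5+Bcl6+ group, 9.47 ± 0.109 in the Cxcr5+Bcl6- group and 9.18 ± 0.0842 in the Cxcr5-Bcl6- group. Like Havcr2 it lay under the 95th percentile of the stand-in genes in both Cxcr5+Bcl6+ arrays, and it was at least 2.74-fold lower than in Cxcr5-Bcl6- cells (measured log2 difference -2.27, adjusted p = 1.69e-08). Lilrb4a and Klrg1, both inhibitory receptors with signalling motifs in their tails, were lower too. Lilrb4a (-1.74) was under the percentile in 1 Cxcr5+Bcl6+ array, and Klrg1 was under it in both and at least 1.46-fold lower (measured difference -1.41). Pecam1, an adhesion receptor with such motifs, was higher (1.08, adjusted p = 3.55e-06). Against Cxcr5+Bcl6- cells 5 were lower, among them Entpd1 (at least 3.34-fold, measured difference -2.56) and Cd96 (-0.64), a receptor that shares its ligand with TIGIT. In that comparison 2 were higher, a count of 0 without replicate 1 of either group and of 1 without replicate 2 of either. Between the Bcl6- groups 1 was higher, Pecam1 (0.75), and 2 were lower, Lair1 (-1.17, with 1 Cxcr5+Bcl6- array under the percentile) and Klrg1 (-0.64).

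A list of genes tied to inhibitory signalling inside the cell showed no common direction. It also held adaptors such as Sh2d1a and transcription factors such as Egr2 and Egr3, so its products do not all carry an inhibitory signal themselves. Of 17 measured, 4 were higher and 5 lower in the Cxcr5+Bcl6+ than the Cxcr5-Bcl6- cells (median difference 0.09), against 16.4% and 17.7% of all genes. Sh2d1a (probe set 10599411), which encodes the adaptor SAP, averaged 12.24 ± 0.0111 against 9.89 ± 0.182 (log2 difference 2.35, adjusted p = 2.18e-08), and Dgka, a lipid kinase that damps T cell receptor signals, was higher by 0.60 (adjusted p = 0.000183). Egr2 (-0.94) and Egr3 (-1.29), zinc finger factors that T cell receptor signals induce, were lower. Ptpn11, which encodes the phosphatase SHP-2 that PD-1 recruits, was 0.43 above its level in Cxcr5+Bcl6- cells (adjusted p = 0.00412). In that comparison 5 genes were higher and 3 lower, the higher count being 2 without Cxcr5+Bcl6- replicate 1 and 3 without any other of the 4 arrays. Between the Bcl6- groups 2 were higher and 2 lower. Without any of the 4 arrays compared the higher count was 1, and the lower count was 1 when Cxcr5-Bcl6- replicate 2 was left out and 0 when either Cxcr5+Bcl6- array was.

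Transcription factors and a cytokine receptor known to govern these receptors formed the last list. Of 21 measured, 12 were lower and 5 higher in the Cxcr5+Bcl6+ than the Cxcr5-Bcl6- cells (median difference -0.52), against 17.7% and 16.4% of all genes. Tbx21 (probe set 10390328), which encodes T-bet, the T helper 1 factor known to promote Havcr2, averaged 7.82 ± 0.0469 in the Cxcr5+Bcl6+ group, 11.29 ± 0.000728 in the Cxcr5+Bcl6- group and 11.63 ± 0.0164 in the Cxcr5-Bcl6- group. It was lower in Cxcr5+Bcl6+ cells against both other groups (measured log2 difference -3.80 from Cxcr5-Bcl6-, adjusted p = 3.28e-10, and -3.47 from Cxcr5+Bcl6-, adjusted p = 6.18e-10). Its Cxcr5+Bcl6+ arrays, at 7.85 and 7.79, lay only just above the 95th percentile of the stand-in genes there (7.72 and 7.73). Prdm1, which encodes the repressor Blimp-1, was lower than in Cxcr5-Bcl6- cells (log2 difference -2.12, adjusted p = 5.41e-08, 1 Cxcr5+Bcl6+ array under the percentile), and so was Foxp3, which encodes the regulatory T cell factor (-2.89, adjusted p = 7.23e-09). Tox2, a follicular helper factor, was higher by 1.99 (adjusted p = 5.94e-08). Relative to Cxcr5+Bcl6- cells 13 were lower and 4 higher, the lower ones including Prdm1 (-2.33), Foxp3 (-2.67) and Nr4a3 (-1.19), a nuclear receptor induced by T cell receptor signals. Between the Bcl6- groups 4 were higher and 6 lower, with Maf (0.79) and Tox2 (0.77) higher and Eomes (-0.95) and Irf4 (-0.52) lower. The 6 fell to 2 without Cxcr5+Bcl6- replicate 1 and to 3 without any other of the 4 arrays compared.

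**Figure D3:**
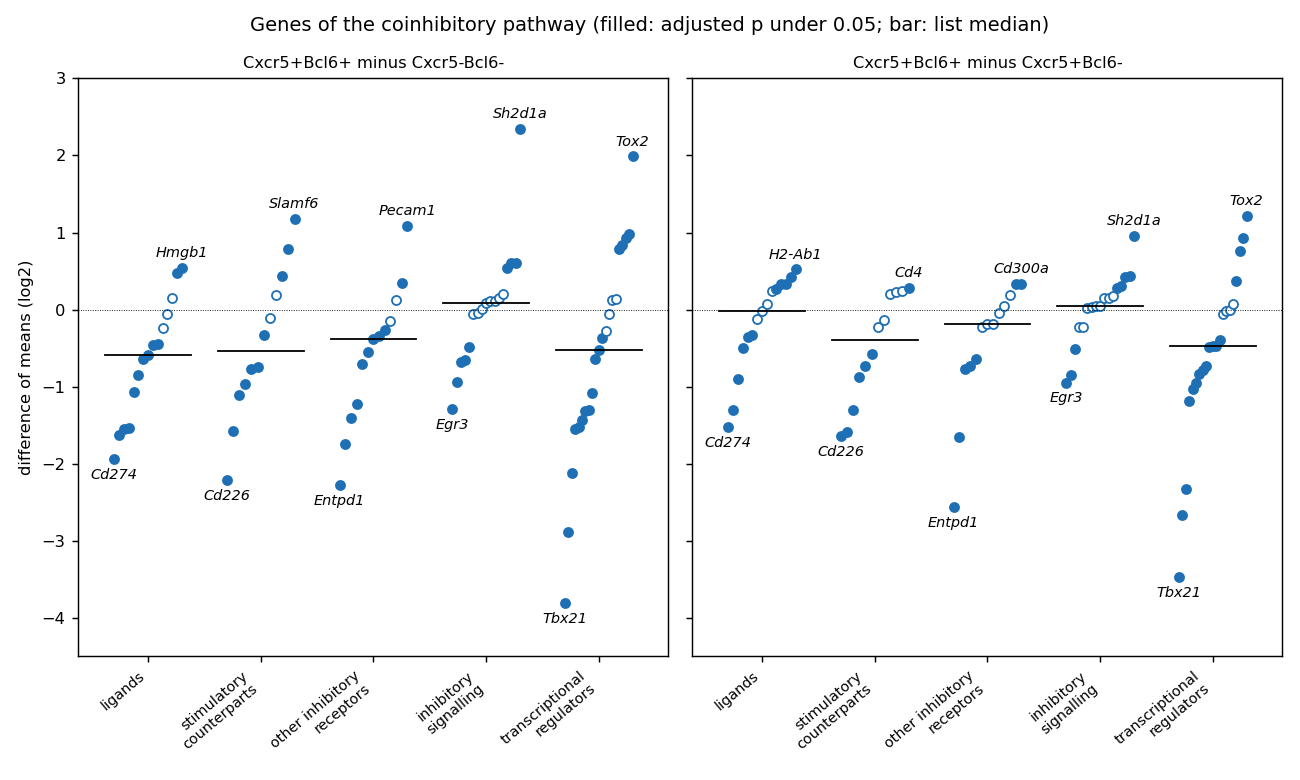
Differences in log2 level of Cxcr5+Bcl6+ cells from Cxcr5-Bcl6- (left) and from Cxcr5+Bcl6- cells (right) for the genes of 5 lists, 1 point per gene, filled where the adjusted p was under 0.05, with bars for list medians. The lowest and the highest called gene of each list is named, so these labels were chosen by value. Cd226 (-2.22), Entpd1 (-2.27) and Tbx21 (-3.80) lie lowest in their lists on the left, as measured.

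Across the 6 arrays the genes closest in pattern to each receptor gene were found among 9599 other genes of at least median level, by the root mean square difference of levels centred on each gene's mean. The 6 points stand for 3 groups, so likeness mostly reflects group means, and it is given as a description. Closest to Havcr2 were Nkg7, which encodes a protein of cytotoxic granules (0.147), Ifitm3, an interferon-induced gene (0.165), and Il17a, the gene of the cytokine interleukin 17A (0.188). Nkg7 differed by -2.70 and -3.08 in the comparisons where the measured differences of Havcr2 were -2.97 and -3.41. Closest to Pdcd1 were Cbx7, which encodes a Polycomb protein (0.0188), Ets1, a lymphocyte transcription factor (0.0256), and Pxk (0.0270). Tigit lay closest to Susd3 (0.0601), S100a11 (0.0771) and Fam78a (0.0784), and Cd160 to Cpd (0.106), Nek6 (0.108) and Slc15a3 (0.114). Ctla4 lay closest to Mcm4, which encodes a replicative helicase subunit (0.0237), Slfn10-ps (0.0285) and Ammecr1 (0.0288). For Lag3 (Tcf3, Mllt6 and Aldoa, 0.0181 to 0.0203) and Btla (Fam149b, Tjap1 and Cdc42se1, 0.0149 to 0.0191), whose levels hardly varied, a small value shows only that the other genes hardly varied either.

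Among the receptor genes themselves the same measure was smallest between Lag3 and Btla (0.0428) and largest between Tigit and Havcr2 (1.88). Pdcd1 and Tigit, the pair higher in Cxcr5+Bcl6+ cells, stood at 0.290. Havcr2 and Cd160, the pair with the largest negative differences there, stood at 0.815.

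Markers of other cells moved between the groups as well, and their part in the differences above was not tested. Their counts stand beside 16.4% of all genes higher and 17.7% lower in the Cxcr5+Bcl6+ than the Cxcr5-Bcl6- cells. The summed level of 12 regulatory T cell markers was 14.02 to 14.15 in Cxcr5+Bcl6+, 15.53 to 15.55 in Cxcr5+Bcl6- and 15.7 to 15.8 in Cxcr5-Bcl6- arrays, and 10 of the 12 were lower in the Cxcr5+Bcl6+ than the Cxcr5-Bcl6- cells and none higher. Of 11 T helper 1 markers, 7 were lower and 1 higher, with summed levels of 13.9 to 14.0, 14.96 in both Cxcr5+Bcl6- arrays and 14.59 to 14.65 in the same order. These lists include Tbx21 and Foxp3. They stand beside the lower levels of Havcr2, Cd160 and Ctla4, but also beside higher levels of Pdcd1 (0.60) and Tigit (1.15). Lag3 and Btla did not pass. Of 7 CD8 T cell markers 6 were lower and none higher (10.5 to 10.6, 11.36 to 11.40 and 11.78 to 11.86). Of 11 natural killer and innate-like T cell markers 7 were lower and 1 higher (12.3 to 12.5, 13.1 to 13.2 and 13.5 to 13.6), and 5 of them, Ncr1, Klrb1c, Klrk1, Klre1 and Klra8, lay under the 95th percentile of the stand-in genes in all 6 arrays.

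Of 11 B cell markers, 9 were higher and 1 lower in the Cxcr5+Bcl6+ than the Cxcr5-Bcl6- cells, against 16.4% and 17.7% of all genes. The summed levels were 12.03 to 12.08, 11.57 to 11.62 and 11.06 to 11.07 in the same order. Cd79a and Cr2 lay under that percentile in all arrays and Blk, Ebf1 and Bank1 in 4. In the same comparison 423 of the 1223 stand-in probe sets were called higher and 1 lower, and the part of this shift among dim genes in the B cell count was not tested. Btla, which B cells also express, did not pass in this comparison (-0.02), and any share of B cell RNA in its level was not tested. Of 14 myeloid and dendritic cell markers 7 were lower and 1 higher (11.65 to 11.70, 11.83 and 12.71 to 12.73), and 6 of them, Csf1r, Itgam, Adgre1, Xcr1, Clec9a and Cd14, lay under that percentile throughout. In Cxcr5+Bcl6- against Cxcr5-Bcl6- cells 8 of the 14 were lower and 1 higher, against 5.49% and 5.5% of all genes. These counts stand beside the lower MHC class II and Cd80 levels given above.

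**Figure D4:**
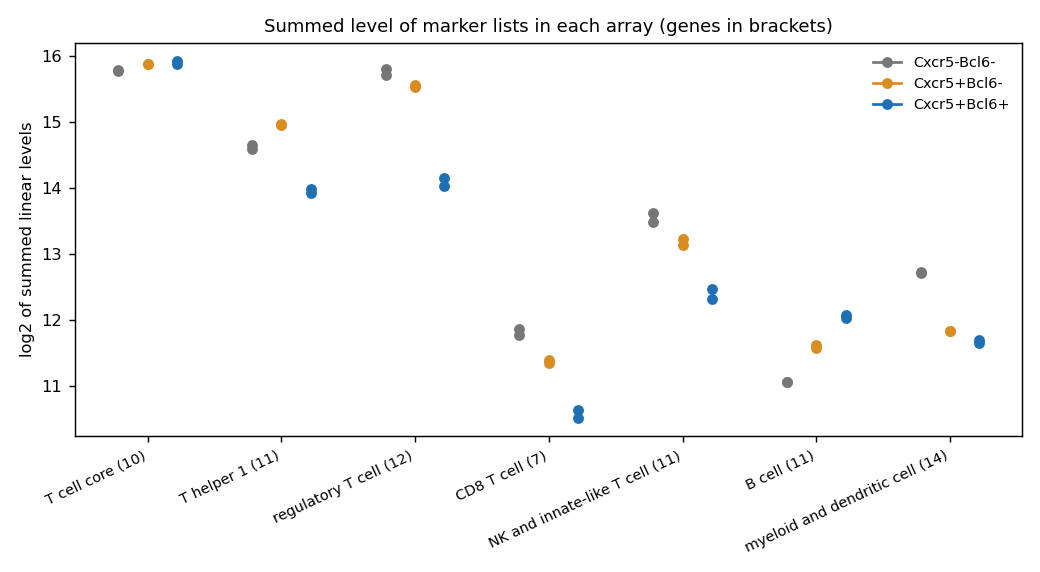
Summed level of 7 marker lists in each array, as log2 of the sum of linear levels, with the number of genes in brackets and colours for the 3 groups. Regulatory T cell, T helper 1, CD8 T cell, natural killer, and myeloid and dendritic cell lists were lowest in Cxcr5+Bcl6+ arrays. The B cell list was highest in those arrays, while the T cell core list stayed at 15.8 to 15.9.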

How the data were processed

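The authors deposited log2 probe-set levels from 6 Affymetrix whole-transcript arrays, normalised across arrays. GCOS 1.1, RMA and Affymetrix Expression Console are named in the submitters' processing notes without order or settings, so the normalisation cannot be stated further. That the scale is log2 was inferred from their range. A genome build for the probe sets is not given in the sources used. Of 35556 rows, 21789 carried 1 gene symbol in the platform annotation, 1621 several and 12146 none; 21698 symbols were updated through Entrez identifiers and 91 kept as listed.

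All 23410 probe sets with a symbol were fitted with limma 3.58.1 in R 4.3.3 (lmFit with group means over 6 arrays, eBayes at default settings, two-sided moderated test, 3 residual degrees of freedom, prior of 8.25). P-values were adjusted by Benjamini-Hochberg over all of them, with a threshold of 0.05, and intervals are at 95%. The fit was tested on simulated data. P-values set each difference against a spread that combines the probe set's own (3 degrees of freedom) with a prior from all fitted probe sets (8.25). The prior thus has the larger weight, and the number of arrays limits the precision. For lists, each gene was represented by its probe set of highest mean level. Some genes of the lists are not reported here, and counts are over the genes measured. The receptor genes and all lists were chosen with earlier results of these data known. Named genes were all 7 receptor genes, up to 4 genes per list and comparison with the smallest p among those called, and 3 genes most like each receptor gene, leaving out genes without a curated symbol. Sequences came from RefSeq windows, matched by symbol for 6 of the 7 receptor genes. Alternatives were other eBayes options, normalisations, filters, thresholds, sets of probe sets and arrays, and a replicate term.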

Additional observations from a re-analysis of the deposited data

How the results depend on the processing

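Pdcd1, Havcr2 and Cd160 against Cxcr5-Bcl6- cells, Havcr2 and Cd160 against Cxcr5+Bcl6- cells, and Tigit in both comparisons with Cxcr5-Bcl6- cells kept direction and call in all 18 alternatives. With a change of at least 1.5-fold required, 1 of 7 receptor genes passed between the Bcl6- groups in place of 2, and 2 between the Cxcr5+ groups in place of 5, which the threshold itself brings about. Over all probe sets that threshold left 3470 of 8255, 822 of 2610 and 1952 of 6185 calls. Testing all rows, named or not, ended the calls of Ctla4 against Cxcr5-Bcl6- cells (adjusted p = 0.0584) and of Tigit between the Cxcr5+ groups (adjusted p = 0.0882), and an intensity trend in limma brought Ctla4 between the Bcl6- groups past the threshold (adjusted p = 0.0485). Leaving out each array in turn gave 4 to 5 called receptor genes against Cxcr5-Bcl6- cells, 1 to 2 between the Bcl6- groups and 4 to 5 between the Cxcr5+ groups. Over all probe sets, leaving out Cxcr5+Bcl6- replicate 1 or 2 gave 1317 or 1401 calls between the Bcl6- groups and 3617 or 3820 between the Cxcr5+ groups, and all rows gave 1579 between the Bcl6- groups. Directions turned only for differences that did not pass: Btla against Cxcr5-Bcl6- cells was 0.0217 after renewed quantile normalisation and 0.0046 without Cxcr5-Bcl6- replicate 1 (-0.0370 to 0.0046 over arrays left out), Lag3 was -0.0287 with centred arrays and -0.0287 without that array (-0.0287 to 0.0673), and Lag3 against Cxcr5+Bcl6- cells was 0.0031 after quantile normalisation, and the cause was not tested. Arrays with the same replicate number deviated together at r = 0.258, -0.234 and -0.046 between pairs of groups. These values had no common sign, and with 2 arrays per group they cannot settle whether the numbers pair the arrays. With the replicate block 5, 2 and 5 receptor genes were called, as without it. No member had another probe set to try. The 6 arrays limit what small differences can show.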
